A study of Mus musculus with 18 samples.

Results

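Genes that rods and cones both use were followed in RNA of the retinal pigment epithelium (RPE) of *rd1* mice at postnatal day 40 (P40). The 10 genes are *Crx*, *Aipl1*, *Pdc*, *Rcvrn*, *Guca1a*, *Guca1b*, *Gucy2e*, *Prph2*, *Rom1* and *Rp1*, out of 47729 genes in the count table. They were listed by their shared use in rods and cones, and the list was chosen by measured values in part, the strong falls of *Aipl1* and *Pdc* between these same eyes. Their levels and fold changes between the groups are therefore given as a description, without p values. All 10 passed the filter on low counts that left 18958 genes to be tested.

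Each of 9 *rd1* mice, which carry a *Pde6b* mutation and lose their rods early in life, supplied both eyes. The pairs follow the labels, and the study's methods state fewer pairs for this age. One eye was given AAV that expressed human Nrf2 from the Best1 promoter, mixed with AAV-Best1-GFP (Best1-Nrf2), and its partner was given AAV-Best1-GFP by itself (control). By the study's methods the mixture held more vector in total, and its Nrf2 vector had a different capsid from the GFP vector. The groups therefore differ in vector dose and capsid as well as in Nrf2. The fragment of the human Best1 promoter was used to drive expression in the RPE, so every eye analyzed here carried a GFP vector and the *rd1* allele, and no eye was uninjected or wild type. The retina was lifted off, the cleaned eyecup was put in a stabilizing solution, and poly(A) RNA purified from the supernatant was amplified before library preparation. Libraries were sequenced in more than 1 run, and which library was in which run is not given in the sources used here. The labels do not say whether mice were littermates or which sex they were.

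Rods and cones turn light into an electrical signal by the same scheme. Opsin activates the G protein transducin, transducin activates the phosphodiesterase PDE6, PDE6 hydrolyzes cGMP, and channels that cGMP holds open then close. Falling calcium switches on guanylate cyclase through small calcium sensors and so restores cGMP, and the whole cascade sits in stacked membrane discs whose rims are held by tetraspanin proteins. The RPE faces these outer segments and takes up their shed tips, but is not itself a photoreceptor.

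Library totals ranged from 18956748 to 44054836 counts in control and from 32839893 to 49598700 in Best1-Nrf2 eyes. Levels are given as CPM, counts set to a common library size after scaling by the trimmed mean of M values. *Nfe2l2*, the mouse gene for Nrf2, ranged from 75.2 to 123 CPM in control and from 265 to 721 CPM in Best1-Nrf2 eyes (log2 fold change, 2.29 ± 0.21 (SE, n = 9 pairs); edgeR, adjusted p = 6.21e-05), and was higher in 9 of 9 mice. Whether reads of the human cDNA were among these counts was not tested. Markers of the labelled tissue were present: none of 22 RPE genes was at 0 in all libraries of a group. The same held for lists of rod, cone, inner retina, Müller glia and macrophage genes, so it does not set the RPE apart. *Rpe65*, the isomerase of the retinoid cycle, had a median of 2237 CPM in control eyes. In Best1-Nrf2 eyes that median was 243 CPM, and *Rpe65* was among the 4 of 22 RPE genes that fell (log2 fold change, -2.81 ± 0.31 (SE, n = 9 pairs); edgeR, adjusted p = 0.000241), beside none that rose. In bulk RNA of this kind, fewer cells of a type and less RNA per cell cannot be told apart, and this holds for every fall given here. The retina had been removed, so for photoreceptor genes the amount of retina left on each eyecup cannot be told apart from these either.

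The sequences just upstream are shown for 4 members, *Rom1*, which rose, and *Aipl1*, *Crx* and *Guca1a*, which fell. Each of them holds a match to a motif described below, and the windows of *Pdc*, *Prph2* and *Gucy2e* are not shown. Promoter windows were found for 7 of the 10 members in the RefSeq table (GRCm38.p6), and *Rcvrn*, *Guca1b* and *Rp1* had no entry. The windows shown here end just before the RefSeq start, or just before the GENCODE start where that lay further upstream, as in *Crx*, and they exclude any exon. They read 5′ to 3′ on the strand of the gene, which is the minus strand for all 4, and capitals mark the matches described next.
Aipl1, chr11:72037510-72037759: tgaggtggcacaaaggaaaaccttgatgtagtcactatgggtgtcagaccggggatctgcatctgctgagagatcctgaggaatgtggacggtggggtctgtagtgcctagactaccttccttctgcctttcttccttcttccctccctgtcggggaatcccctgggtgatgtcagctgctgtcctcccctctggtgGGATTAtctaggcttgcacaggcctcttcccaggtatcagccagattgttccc
Crx, chr7:15879969-15880205: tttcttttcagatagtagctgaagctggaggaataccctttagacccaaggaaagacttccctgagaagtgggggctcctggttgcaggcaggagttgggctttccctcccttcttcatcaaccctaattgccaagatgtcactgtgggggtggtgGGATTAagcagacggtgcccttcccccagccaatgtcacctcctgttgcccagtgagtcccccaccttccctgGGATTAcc
Guca1a, chr17:47400607-47400856: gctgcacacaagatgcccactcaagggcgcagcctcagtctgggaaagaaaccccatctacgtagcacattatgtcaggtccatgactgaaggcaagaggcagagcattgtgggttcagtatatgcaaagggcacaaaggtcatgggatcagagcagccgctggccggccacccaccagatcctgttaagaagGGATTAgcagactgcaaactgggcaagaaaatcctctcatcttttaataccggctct
Rom1, chr19:8929357-8929551: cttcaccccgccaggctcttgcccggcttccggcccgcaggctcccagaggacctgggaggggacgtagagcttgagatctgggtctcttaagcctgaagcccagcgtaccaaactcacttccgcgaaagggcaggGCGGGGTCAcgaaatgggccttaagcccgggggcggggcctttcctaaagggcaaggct

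In the first 3 windows the capitals mark GGATTA, the reverse complement of TAATCC, the letters that the homeodomain protein CRX prefers. Over the 250 bases upstream, on either strand, TAATCC was found in 4 of the 7 members with an entry, *Aipl1*, *Crx*, *Guca1a* and *Gucy2e*, and in 6.25% of 32851 mouse promoter windows of the same length. Counted from the RefSeq start, which in *Crx*, *Guca1a* and *Gucy2e* is not the GENCODE start used for the gene coordinates, the first base of the match lay 53 bases upstream in *Aipl1*, 57 in *Guca1a* and 42 in *Gucy2e*, and *Crx* held 2 matches, at 94 and 21 bases. In the window of *Rom1* the capitals mark a match on the opposite strand to TGACNNNGC, the core of the antioxidant response element to which Nrf2 binds with its small Maf partners. Of the 7 members, *Rom1* alone had this match, whose first base lay 59 bases upstream of the RefSeq start, and the same letters occur in 10.2% of all windows. *Pdc* and *Prph2*, which also fell, held neither motif, and *Gucy2e*, which holds TAATCC, did not pass the test. These matches describe letters and not binding, and the 2 motifs do not overlap in these windows.

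Between the groups, 6 members passed the test as lower (*Aipl1*, *Pdc*, *Crx*, *Rcvrn*, *Prph2* and *Guca1a*), 1 as higher (*Rom1*), and *Guca1b*, *Gucy2e* and *Rp1* passed in neither direction. Across the 18958 genes the same test (edgeR, Benjamini-Hochberg adjusted p under 0.05) called 4.25% in either direction, 1.13% as lower and 3.12% as higher. Since the contrast helped to choose the genes, nothing is read from the size of these counts. The median log2 fold change was -2.80 over the members and -0.03 over all genes tested, and without the pairing of eyes it was -1.82 over the members. The number called as lower was 3 in place of 6 when mouse 1, mouse 3 or mouse 7 was left out, and *Crx*, *Prph2* and *Guca1a* were the members that lost the call. *Crx* lost it without any 1 of mice 1, 3, 4, 5, 7 and 9, *Prph2* without any 1 of mice 1, 2, 3, 4, 5 and 7, and *Guca1a* without any 1 of mice 1, 2, 3 and 7. 

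**Figure D1:**
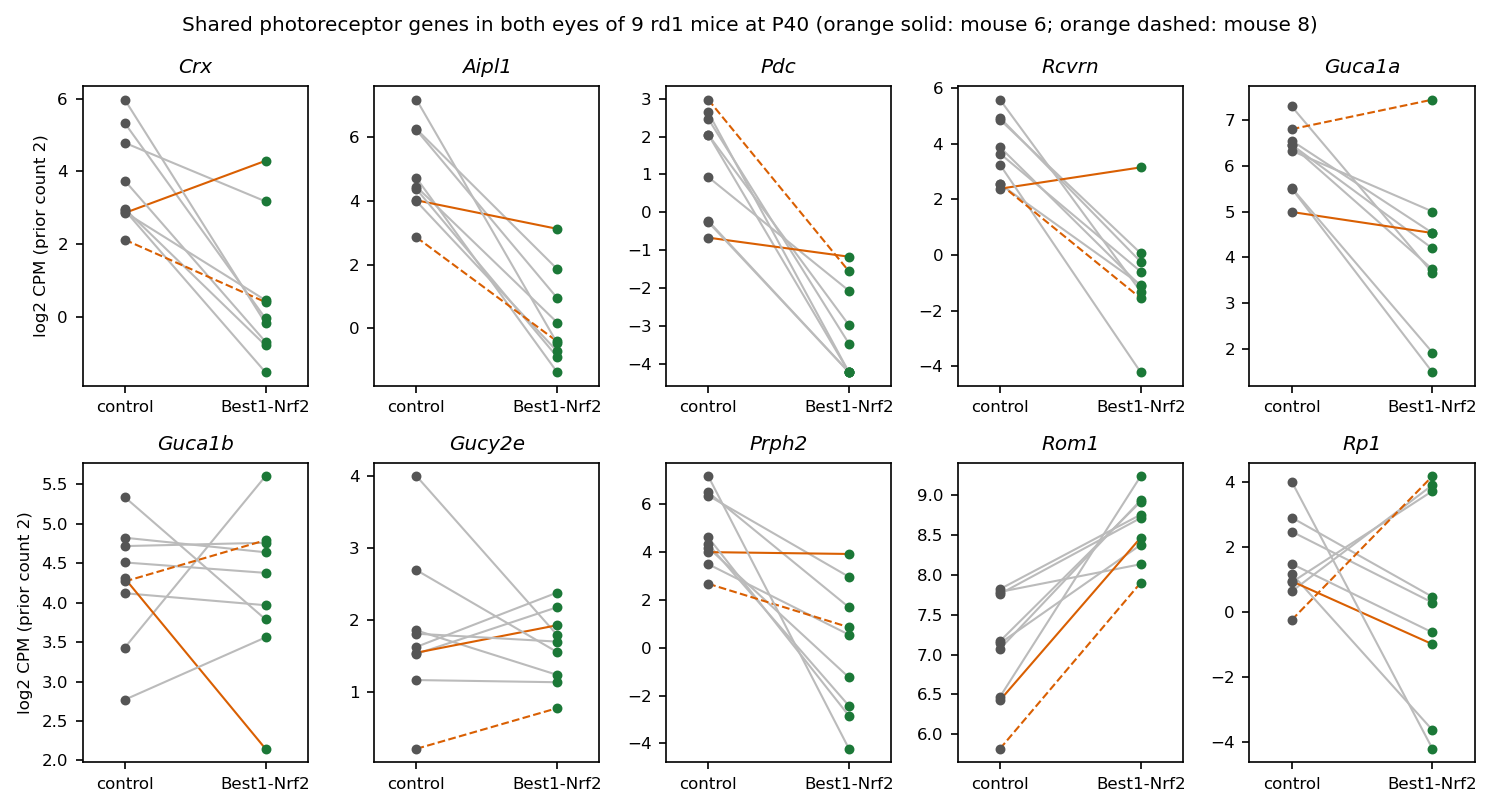
Log2 CPM (prior count 2, vertical axis) of each shared photoreceptor gene in the control eye (grey) and Best1-Nrf2 eye (green) of 9 mice, with a line for each mouse; mouse 6 is the solid orange line and mouse 8 the dashed one. *Rom1* rises in 9 of 9 mice, *Aipl1*, *Pdc* and *Prph2* fall in 9 of 9, and *Rp1* splits, with 3 mice going up.

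*Crx* (ENSMUSG00000041578, chr7:15865947-15879968) encodes the cone-rod homeobox factor, which switches on most photoreceptor genes. It ranged from 4.30 to 62.6 CPM in control eyes (median, 7.77) and from 0.29 to 19.5 CPM in Best1-Nrf2 eyes (median, 0.92). The log2 fold change was -3.38 ± 0.77 (SE, n = 9 pairs), a 10.4-fold fall. It was lower in 8 of 9 mice. Without the pairing of eyes the log2 fold change was -2.35 ± 0.81 and did not pass. The groups overlapped through the Best1-Nrf2 eyes of mice 2 and 6, at 8.97 and 19.5 CPM, while the other 7 stayed at or below 1.32 CPM. Of the words of 31 bases in *Crx* transcripts, 4.53% also occur in other genes, the highest share among the members, so a small part of its reads cannot be assigned with certainty.

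*Aipl1* (ENSMUSG00000040554, chr11:72027963-72037509) encodes a chaperone that PDE6 needs in order to assemble. In control eyes it lay between 7.18 and 144 CPM with a median of 21.7, and in Best1-Nrf2 eyes between 0.33 and 8.65 CPM with a median of 0.70. Only the Best1-Nrf2 eye of mouse 6, at 8.65 CPM, was above the lowest control eye. The fall was 27.7-fold (log2 fold change, -4.79 ± 0.62 (SE, n = 9 pairs)) and was seen in 9 of 9 mice. By mouse, the log2 difference between eyes ran from -7.64 in mouse 9 to -0.89 in mouse 6.

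*Pdc* (ENSMUSG00000006007, chr1:150319417-150333906) encodes phosducin, which binds the beta and gamma subunits of transducin. It was a low gene already in control eyes, at 0.58 to 7.80 CPM (median, 4.09). In Best1-Nrf2 eyes it ran from 0 to 0.39 CPM (median, 0.04), with no count in mice 2, 4, 7 and 9. There, a count of 0 allows up to 3 counts, or 0.0695 to 0.0853 CPM, and this limit covers counting error only. *Pdc* and *Rom1* were the only members whose groups did not overlap, *Pdc* downward as for 0.100% of genes tested, and *Rom1* upward as for 1.05%. The fitted log2 fold change was -5.55 ± 0.95 (SE, n = 9 pairs), with *Pdc* lower in 9 of 9 mice, but it rests on 0 to 14 counts per Best1-Nrf2 library. In mouse 6 the eyes differed by -0.50 on the log2 scale, with the lowest of the 9 control eyes, at 0.58 CPM, and the highest of the 9 Best1-Nrf2 eyes, at 0.39 CPM.

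*Rcvrn* (ENSMUSG00000020907, chr11:67695326-67703333) encodes recoverin, a calcium sensor that restrains the opsin kinase. Its level was 5.16 to 47.9 CPM in control (median, 12.5) and 0 to 8.82 CPM in Best1-Nrf2 eyes (median, 0.42). The eye of mouse 6 again stood alone among the Best1-Nrf2 eyes at 8.82 CPM, since the other 8 were at or below 0.99 CPM. *Rcvrn* was lower in 8 of 9 mice, and the log2 fold change was -4.83 ± 0.80 (SE, n = 9 pairs), or -3.63 ± 0.84 without the pairing of eyes. With the control eye of mouse 6 at 5.16 CPM, this was the mouse in which *Rcvrn* was higher.

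The members that make cGMP again after light moved unequally. *Guca1a* (ENSMUSG00000023982, chr17:47394558-47400584), which encodes the cyclase activator GCAP1, ranged from 31.8 to 157 CPM in control (median, 86.9) and from 2.77 to 174 CPM in Best1-Nrf2 eyes (median, 18.3). The value of 174 CPM was from mouse 8 and exceeded every control eye, whereas the other 8 Best1-Nrf2 eyes were at or below 32.0 CPM. *Guca1a* was lower in 8 of 9 mice (log2 fold change, -2.22 ± 0.48 (SE, n = 9 pairs)). Without the pairing of eyes its log2 fold change was -1.30 ± 0.61 and no longer passed.

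*Guca1b* (ENSMUSG00000023979, chr17:47385393-47392967), which encodes the related activator GCAP2 and lies next to *Guca1a* on the chromosome, ranged from 6.77 to 40.4 CPM in control (median, 19.8) and from 4.38 to 48.6 CPM in Best1-Nrf2 eyes (median, 20.7). It was lower in 5 mice and higher in 4, with a log2 fold change of -0.10 ± 0.37 (SE, n = 9 pairs). The groups overlapped over nearly their whole range. Its sign changed under several settings, to values between 0.02 and 0.17. *Gucy2e* (ENSMUSG00000020890, chr11:69218117-69237036), the guanylate cyclase that both activators act on, ranged from 1.10 to 15.9 CPM in control (median, 3.02) and from 1.65 to 5.14 CPM in Best1-Nrf2 eyes (median, 3.18). The log2 fold change was -0.20 ± 0.34 (SE, n = 9 pairs), lower in 5 mice and higher in 4. The highest control eye was that of mouse 1, and without that mouse the log2 fold change was 0.09.

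*Prph2* (ENSMUSG00000023978, chr17:46910459-46924933) encodes peripherin 2, the tetraspanin of the disc rim. It ranged from 6.29 to 142 CPM in control (median, 19.8) and from 0 to 14.95 CPM in Best1-Nrf2 eyes (median, 1.40). Mice 2 and 6 had the highest Best1-Nrf2 values, 7.69 and 14.95 CPM, and these were the ones that overlapped the controls. *Prph2* was lower in 9 of 9 mice, with a difference of -0.08 on the log2 scale in mouse 6, and the log2 fold change was -4.65 ± 1.08 (SE, n = 9 pairs), or 25.04-fold. Without the pairing of eyes it was -3.76 ± 0.99. With *Aipl1* and *Pdc*, *Prph2* was 1 of 3 members that were lower in all mice, as 1.09% of genes tested were. In mouse 9, where the Best1-Nrf2 eye had no *Prph2* count, a count of 0 allows up to 0.0695 CPM, against 142 CPM in the control eye.

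*Rom1* (ENSMUSG00000071648, chr19:8927391-8929356) encodes the partner tetraspanin that pairs with peripherin 2 in the disc rim. It was the only member that passed as higher, at 239 to 604 CPM (median, 420) against 56.4 to 226 CPM in control eyes (median, 141). Every Best1-Nrf2 eye was above every control eye. The log2 fold change was 1.53 ± 0.25 (SE, n = 9 pairs), a 2.89-fold rise, and *Rom1* was higher in 9 of 9 mice, by 0.35 in mouse 1 to 2.77 in mouse 4, a direction shared by all mice in 3.22% of genes tested. *Rom1* passed under all 17 other settings that were run, with log2 fold changes from 1.37 to 1.73. None of its 31-base words occurred in another gene, and its exons overlap no other gene. Its neighbors did not pass: *B3gat3* had a log2 fold change of 0.02 (edgeR, adjusted p = 0.984), and *Eml3*, which starts upstream on the opposite strand, had 0.41 (edgeR, adjusted p = 0.453).

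Within a library, the log2 ratio of *Rom1* to *Prph2* was 0.67 to 3.69 in control eyes (median, 2.44). In Best1-Nrf2 eyes the lowest ratio was 4.56 and the median 8.38, and the highest ratios are not given because they rest on 0 *Prph2* counts in mouse 9 and 3 in mouse 7. This restates, for each eye, the rise of *Rom1* and the fall of *Prph2* already given.

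*Rp1* (ENSMUSG00000025900, chr1:3999557-4409241) encodes a microtubule protein of the outer segment axoneme. It was low in control eyes, at 0.79 to 16.04 CPM (median, 2.20), and spread from 0 to 18.02 CPM in Best1-Nrf2 eyes (median, 1.16). The Best1-Nrf2 eyes fell apart into 3 high ones, mice 4, 7 and 8 at 14.9, 13.1 and 18.02 CPM, and 6 at or below 1.32 CPM. In those 3 mice *Rp1* was higher than in the control eye, and in the other 6 it was lower. The log2 fold change of -1.45 ± 1.46 (SE, n = 9 pairs) describes neither set, and without the pairing of eyes it was 0.31.

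**Figure D2:**
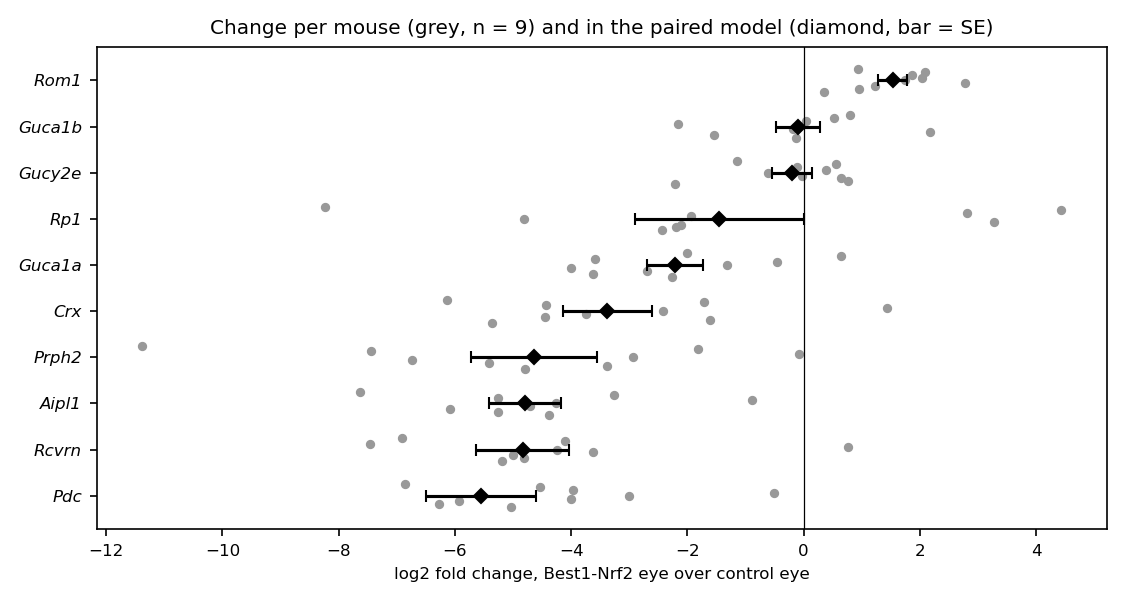
Log2 fold change of each member, Best1-Nrf2 over control (horizontal axis), with 1 grey point for each of 9 mice and a diamond with its standard error for the paired model; points of mice with a count of 0 depend on the prior count of 2. *Pdc*, *Rcvrn*, *Aipl1* and *Prph2* lie between -5.55 and -4.65, *Guca1b* and *Gucy2e* near 0, and *Rom1* at 1.53.

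Per mouse, the number of members that were lower in the Best1-Nrf2 eye was 5 in mouse 8, 6 in mouse 6, and 7 to 9 in the other 7 mice. The median difference over the 10 members was -0.27 in mouse 6 and -0.60 in mouse 8, and -2.68 or lower elsewhere. Mice 6 and 8 thus had the smallest differences, but for different genes. In mouse 6 *Aipl1*, *Crx*, *Rcvrn* and *Prph2* were high in the Best1-Nrf2 eye, and in mouse 8 *Guca1a* and *Rp1* were. The control eyes of mice 6 and 8 also had the lowest mean log2 CPM over the members, 3.08 and 3.00, against 3.22 to 5.24 in the other control eyes. The mean log2 CPM of the 12 cone-specific genes was 4.64 in the Best1-Nrf2 eye of mouse 6, against 2.73 for the next Best1-Nrf2 eye. In the control eye of mouse 6 it was 4.25, the lowest among control eyes. Without both mice, 6 members again passed as lower and *Rom1* as higher. The summed level of the 10 genes went the other way from their mean log2 level. The median sum was 302 CPM in control eyes but 472 CPM with Best1-Nrf2, and the medians of *Rom1* by itself were 141 and 420 CPM. The mean log2 CPM had a median of 3.60 in control and 1.40 in Best1-Nrf2 eyes.

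Levels can be compared between genes only per length of transcript. In control eyes, by median CPM per kilobase of exon, *Guca1a* (99.5) and *Rom1* (93.0) were far above *Rcvrn* (11.99), *Guca1b* (8.10), *Aipl1* (6.86) and *Prph2* (6.59). *Crx* (2.46), *Pdc* (1.22), *Gucy2e* (0.33) and *Rp1* (0.18) were the lowest. With Best1-Nrf2 the order of CPM per kilobase was *Rom1* (277), *Guca1a* (20.9) and *Guca1b* (8.50), and then *Prph2* (0.47), *Rcvrn* (0.41), *Gucy2e* (0.35), *Crx* (0.29), *Aipl1* (0.22), *Rp1* (0.09) and *Pdc* (0.01). The ranges of all neighbors in both orders overlapped. In control eyes *Rom1* was nonetheless above *Rcvrn*, and *Prph2* above *Crx*, in 9 of 9 libraries, whereas *Guca1a* was above *Rom1*, and *Aipl1* above *Prph2*, in only 3 of 9.

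The members' variation from eye to eye was described in each group by itself. These correlations of log2 CPM are across 9 libraries that share batch, tissue and depth effects, and are given as a description. In control eyes, *Aipl1*, *Crx*, *Rcvrn* and *Prph2* rose and fell together (Pearson r, 0.87 to 0.98 over 6 pairs), and *Rp1* (0.94 to 0.99) and *Rom1* (0.87 to 0.94) went with them. *Gucy2e* followed less closely (0.72 to 0.79), and *Pdc* (0.26 to 0.58) and *Guca1a* (0.32 to 0.63) less again. *Guca1b* ran weakly opposite, with r of -0.32 to -0.12.

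In Best1-Nrf2 eyes the same 4 genes still correlated at 0.74 to 0.82. The eye of mouse 6 was the highest of these eyes for all 4, and r without it was not computed. With the 4 genes, *Pdc* had r of 0.44 to 0.63, *Guca1a* of 0.20 to 0.39 and *Gucy2e* of 0.28 to 0.34. *Rom1* had r of -0.46 to -0.12 with them, and *Rp1* had r of -0.39 to -0.03. *Guca1b* was more strongly opposite, at -0.84 to -0.47.  Whether r differed between the groups was not tested.

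**Figure D3:**
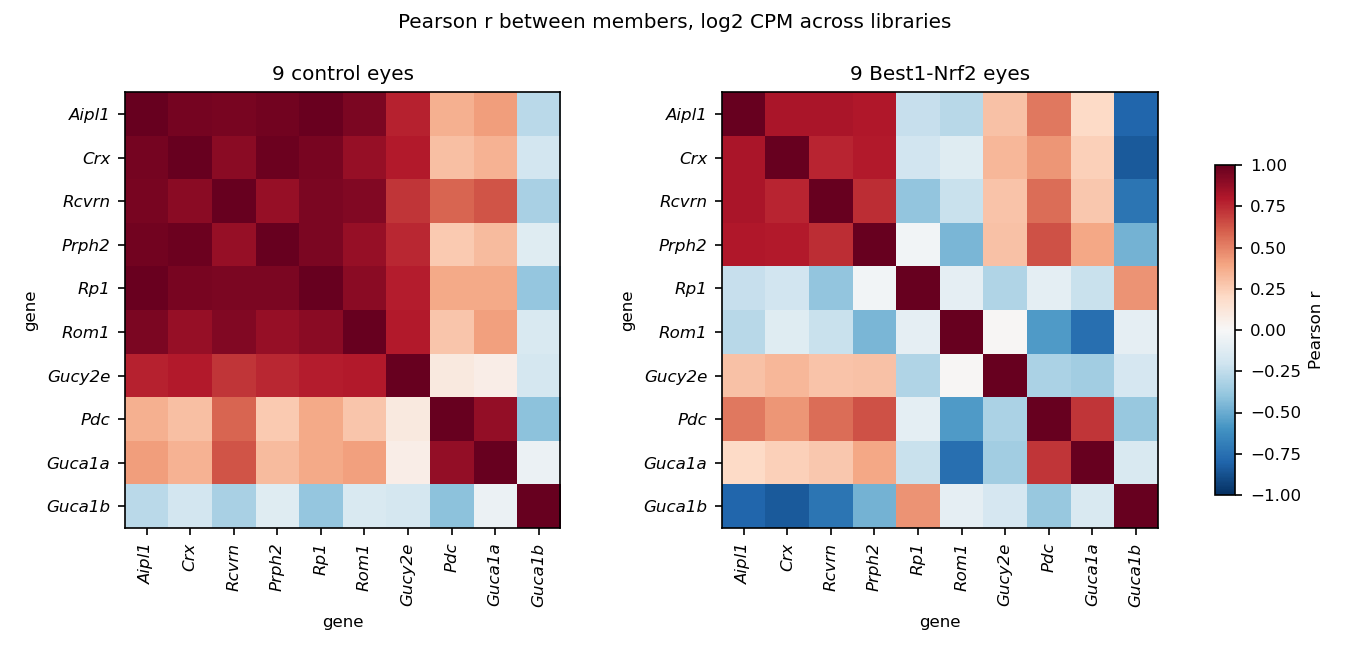
Pearson r of log2 CPM between each pair of members (both axes, genes) across 9 control eyes (left) and 9 Best1-Nrf2 eyes (right), from -1 in blue to 1 in red. *Rom1* and *Rp1* belong to the red block of *Aipl1*, *Crx*, *Rcvrn* and *Prph2* in control eyes, and in Best1-Nrf2 eyes their r with it lies between -0.46 and -0.03.

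Across all 18 libraries, after the group means were removed, the genes most like the mean of the members were searched among the 11779 genes whose mean log2 CPM reached 2. The first 5 were *Sag* (rod arrestin; r = 0.91), *Opn1mw* and *Opn1sw* (cone opsins; 0.90 and 0.88), *Pde6g* (the rod PDE6 inhibitory subunit; 0.86) and *Arr3* (cone arrestin; 0.85). *Kcne2*, *Klhl32*, *Ppm1j*, *Pde6h* and *Mpp4* followed, at 0.80 to 0.83. Of these 10, all but *Klhl32* and *Ppm1j* are also in the photoreceptor lists described next.

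Other photoreceptor genes were taken from lists that do not hold the members. Of 84 genes in all, 80 could be tested, and 29 fell and 1 rose, with a median log2 fold change of -1.31. Of 12 cone-specific genes 10 fell. These included *Opn1sw* (-5.94 ± 0.90) and *Opn1mw* (-4.68 ± 0.71), the cone inhibitory subunit *Pde6h* (-5.93 ± 1.11) and cone arrestin *Arr3* (-4.80 ± 0.66; SE, n = 9 pairs for each), and the list median was -3.14. The groups of *Arr3* did not overlap, at 36.7 to 384 CPM in control and 1.09 to 19.4 CPM in Best1-Nrf2 eyes.

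Of 13 rod-specific genes 11 could be tested and 3 fell, with a list median of -0.85: *Sag* (-5.03 ± 0.60), *Pde6g* (-4.79 ± 0.89) and *Gngt1*, the gamma subunit of rod transducin (-4.34 ± 0.95; SE, n = 9 pairs). *Nrl*, the factor that sets rod fate, had a median of 0 CPM in Best1-Nrf2 eyes and 0.0223 CPM in control eyes and was too low to test. *Pde6b*, the gene mutated in *rd1*, was at or below 0.56 CPM in every library.

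Among partners of the members, the genes of PDE6 and its carriers fell in 3 of 9, including the cone catalytic subunit *Pde6c* (-3.25 ± 0.39), whose groups did not overlap. In cGMP and calcium feedback 2 of 8 fell, the opsin kinase *Grk1* (-1.57 ± 0.34), which recoverin restrains, and the exchanger *Slc24a1* (-1.07 ± 0.23). Among disc, outer segment and cilium genes 9 of 21 tested fell and none rose. *Impg1*, of the matrix around photoreceptors, fell by 4.80 ± 0.73 on the log2 scale, the ciliary kinase *Mak* by 4.01 ± 0.86, and *Pcare*, which shapes new discs, by 3.99 ± 0.81.

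Of 10 transcription factors tested, only *Ankrd33*, a repressor that works with CRX, fell (-4.79 ± 0.66). Among 15 synaptic genes 4 fell, with *Cabp4*, a regulator of the presynaptic calcium channel (-5.48 ± 0.86), *Cplx4*, a complexin (-4.62 ± 1.04), and *Lrit1*, an adhesion protein (-2.47 ± 0.59), as the larger ones. The gene that rose was *Elfn1*, a synaptic adhesion protein of the photoreceptor terminal, from 1.62 to 14.6 CPM in control to 4.80 to 47.4 CPM in Best1-Nrf2 eyes (1.99 ± 0.33 (SE, n = 9 pairs); edgeR, adjusted p = 0.00417; higher in 9 of 9 mice). Over these lists, the adjusted p values of the named genes that fell were at most 0.0345 (edgeR). Of 14 paralogues of the members none passed, with a median of -0.10. The lowest was *Rp1l1*, the relative of *Rp1*, at -3.70 ± 1.04 (edgeR, adjusted p = 0.0798; lower in 9 of 9 mice).

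**Figure D4:**
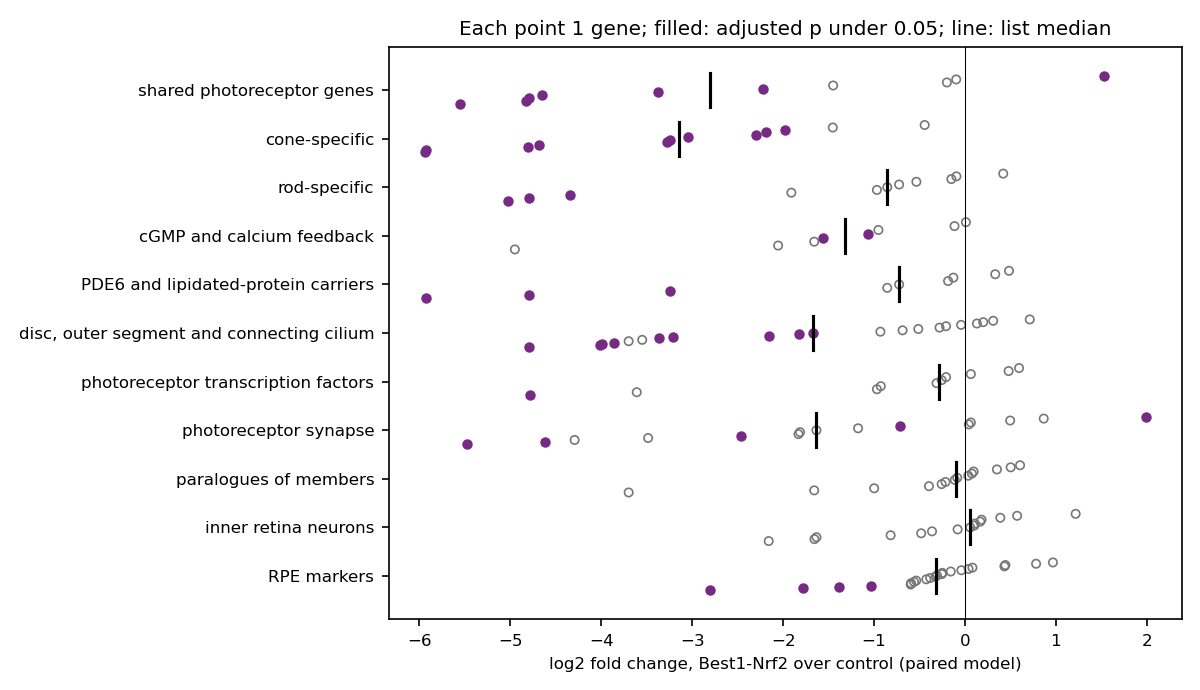
Log2 fold change, Best1-Nrf2 over control (horizontal axis), of each tested gene by list, filled where the adjusted p was under 0.05, with a line at the list median. The shared photoreceptor genes have a median of -2.80 and cone-specific genes one of -3.14, while the medians of inner retina neurons (0.06) and of paralogues (-0.10) lie near 0.

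Markers of other cells of the eye were read beside the members. Of 20 genes of inner retina neurons 15 could be tested and none passed, with a median log2 fold change of 0.06. Their summed level was 378 to 1200 CPM in control and 514 to 2068 CPM in Best1-Nrf2 eyes, with medians of 841 and 1036 CPM. Their mean log2 CPM went the other way, with a median of 1.54 in control and 0.90 in Best1-Nrf2 eyes. *Slc32a1*, the vesicular transporter of inhibitory neurons, had a median of 0 CPM in both groups, as *Lhx1* and *Onecut1* of horizontal cells did in Best1-Nrf2 eyes. The mean log2 CPM of these markers was highest in the Best1-Nrf2 eyes of mice 6 and 2, at 5.22 and 4.35, against 3.64 for the highest control eye. Among Best1-Nrf2 eyes only, these are the ones in which *Crx* and *Prph2* were highest. In control eyes the Pearson r with this mean was -0.10 for *Crx* and -0.21 for *Prph2*. With this mean as a covariate beside the pairing of eyes, the log2 fold changes were -4.64 for *Aipl1*, -3.16 for *Crx*, -4.78 for *Prph2* and 1.53 for *Rom1*, and the same 7 members passed. The covariate holds inner retina genes only, so this fit does not adjust for photoreceptor tissue left on the eyecup. Of 15 macrophage and microglia genes 9 rose (median, 1.66), with sums of 201 to 601 CPM in control and 297 to 815 CPM in Best1-Nrf2 eyes, and none of them was at 0 in all libraries of a group. Of 10 Müller glia genes 1 fell, and none of 8 genes of the choroid and sclera passed. The part of these cells in the members' values was not tested further.

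Within each group, the 10 members were set against the mean log2 CPM of the inner retina list and of the 22 RPE genes, 40 relations in all (2-sided exact permutation tests over all pairings of 9 values, Benjamini-Hochberg adjusted). Past the threshold by Pearson r were 3 relations, all with the RPE genes in control eyes. *Rom1* had r = 0.86 (exact p = 0.000389, adjusted 0.0155), with Spearman coefficient = 0.88 (exact p = 0.00308, adjusted 0.0410). *Aipl1* had r = 0.80 (exact p = 0.00172, adjusted 0.0344) and Spearman coefficient = 0.88 (exact p = 0.00308, adjusted 0.0410). *Prph2* had r = 0.76 (exact p = 0.00300, adjusted 0.0400) but Spearman coefficient = 0.63 (exact p = 0.0760, adjusted 0.253). By the Spearman coefficient *Rp1* passed too, at 0.92 (exact p = 0.00131, adjusted 0.0410), with r = 0.77 (exact p = 0.0159, adjusted 0.0796). For *Rom1*, *Aipl1* and *Prph2*, without mice 1 and 8, the control eyes farthest from the median, r was 0.85, 0.93 and 0.85. The number of relations past the threshold by r was 1 with RLE scaling, 1 without mouse 1, 1 without mouse 8, and 0 without mouse 2.

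None of the relations with inner retina markers passed. The highest r was that of *Crx* in Best1-Nrf2 eyes, 0.92 (exact p = 0.00866, adjusted 0.0705; Spearman coefficient = 0.43, exact p = 0.250, adjusted 0.625), and it rested on mice 2 and 6, since r was 0.04 without them.

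**Figure D5:**
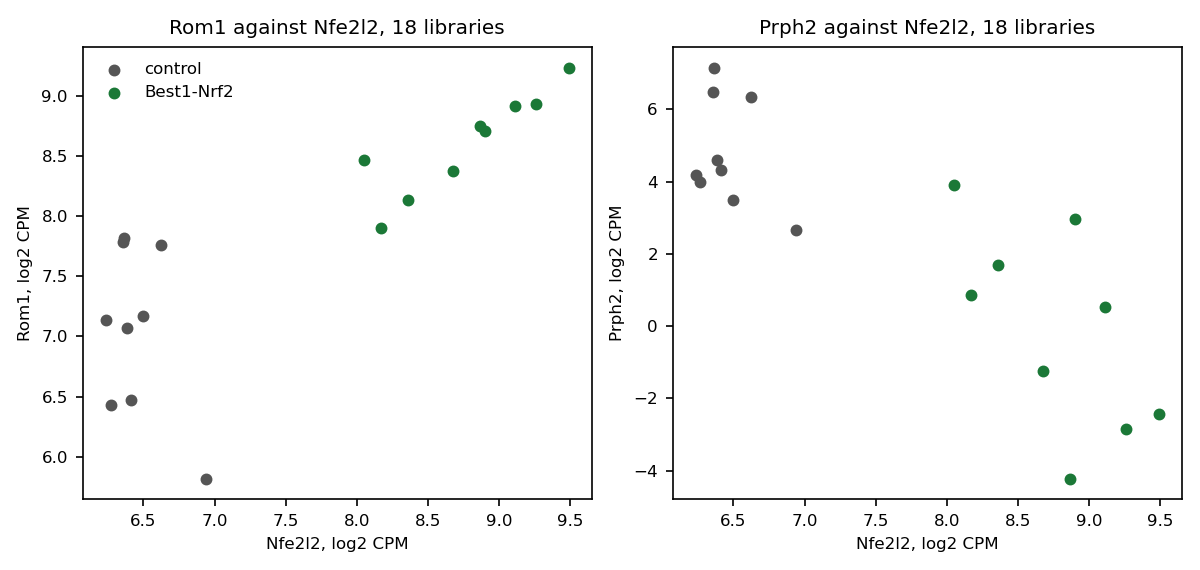
Log2 CPM of *Rom1* (left) and *Prph2* (right, vertical axes) against log2 CPM of *Nfe2l2* (horizontal axis) in 9 control (grey) and 9 Best1-Nrf2 (green) eyes. *Rom1* climbs with *Nfe2l2* among Best1-Nrf2 eyes (r = 0.89), and *Prph2* does not (r = -0.63).

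The relation of the members to *Nfe2l2* within a group was examined after these values were seen. Among Best1-Nrf2 eyes *Rom1* rose with *Nfe2l2*, with r = 0.89 (exact permutation p = 0.00160, adjusted over 20 relations 0.0320) and Spearman coefficient = 0.88 (exact p = 0.00308, adjusted 0.0615). It was lowest, at 239 CPM, in mouse 8, where *Nfe2l2* was 288 CPM, and highest, at 604 CPM, in mouse 4, where *Nfe2l2* was 721 CPM. Without mice 6 and 8, the ones farthest from the median *Nfe2l2*, r was 0.98, and without any 1 mouse it was 0.84 to 0.99. An r at least as high was found for 74 of 18957 genes, or 0.390%. In control eyes r was -0.41 (exact p = 0.276, adjusted 0.4996; Spearman coefficient = -0.18, exact p = 0.644, adjusted 0.757). Leaving out any 1 mouse moved this r to between -0.59 and 0.37, so its sign was not stable. No other relation of a member with *Nfe2l2* passed. The number past the threshold is not stable at this n: it was 0 when mouse 1, 2, 3, 4, 7, 8 or 9 was left out, and 2 without mouse 5.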

How the data were processed

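RNA purified from the supernatant of the eyecup was sequenced in 18 libraries, both eyes of 9 mice. The study's methods name STAR alignment to mm10 with featureCounts, and Salmon with DESeq2; Salmon 0.8.1 is also in the submitters' processing notes. The table that the authors deposited holds estimated counts as whole numbers, 1 row for each Ensembl gene, without scaling of libraries; which counter made them was not given in the sources used here. Symbols matched 47224 of 47729 IDs, and coordinates are from GENCODE mouse release 21 (GRCm38).

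After filterByExpr and TMM scaling (R 4.3.3), quasi-likelihood tests of edgeR 4.0.16 were fitted with mouse as a block. P values were adjusted over 18958 genes (threshold, 0.05). Log2 CPM used a prior count of 2. The pairs are the eyes of 1 animal per the labels, and the median correlation of their residuals was -0.002 (range, -0.37 to 0.65). In data simulated for this comparison, 18958 genes, 70.9% of changes of 1.5 and 94.7% of changes of 3 (log2) were recovered, and 1.17% of calls were false. No molecular identifiers are described, so limits from counts cover counting error only. The labels mention more than 1 sequencing run without assigning libraries to runs.

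Members and lists were chosen with earlier results of these data known. Named are all members and *Nfe2l2*, in each list up to 4 called genes of largest change (or the largest as a value), the 10 genes most like the members' mean, and marker or neighboring genes chosen after their values were seen. Some genes that this rule covers are not reported here. Alternatives were no block, RLE scaling, DESeq2 1.42.0, voom of limma 3.58.1 with sample weights, other count filters, an inner retina covariate, a prior count of 0.5, and leaving out mice.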

Additional observations from a re-analysis of the deposited data

Results flagged for a closer look

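The mean log2 CPM of the 22 RPE genes was 7.04 in the control eye of mouse 8, and the next lowest control eye was at 8.43, a gap that was 0.702 of the whole range of the 9 eyes and above Dixon's critical value. This was the control library with the fewest counts, 18956748, and in it *Aipl1*, *Crx*, *Prph2*, *Rom1*, *Gucy2e* and *Rp1* were also at the lowest level among control eyes. The other members were not: *Pdc*, at 7.80 CPM, was at its highest control level, and *Guca1a*, at 111 CPM, was exceeded only in mouse 2. *Rcvrn* and *Guca1b* lay inside their control ranges. It was the one library that stood apart among 28 groups of 9 libraries screened, where chance alone gives about 1.4.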

How the results depend on the processing

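Of the counts and medians that answer a comparison, 110 values under other settings stayed within the bounds set for them and 31 moved. Genes higher and lower numbered 592 and 214, with 416 to 726 higher without 1 mouse, against 940 and 538 with DESeq2 and 924 and 502 with voom and sample weights. Genes lower were 366 without mice 6 and 8 (chosen after seeing the data), and 116 to 320 without 1 mouse. Members lower were 3 to 6 without 1 mouse. Asking for 10 counts or more in each of the libraries left 4 members, 1 of them lower, with a median of -0.17, and 19 of 54 other photoreceptor genes lower, because it removes genes that were low in any eye. Other photoreceptor genes higher were 2 with the inner retina covariate and without mice 6 and 8, and 1 to 2 without 1 mouse. Relations with the list scores past the threshold were 1 with RLE scaling and 0 to 4 without 1 mouse, and those with *Nfe2l2* were 0 to 2. Without the replicate block, the pairing of eyes, 4 members were lower and 1 higher, with a median of -1.82. *Guca1b* then changed sign to 0.016 and *Rp1* to 0.31. *Guca1b* was also 0.17 with voom and sample weights, 0.10 without mice 6 and 8, and -0.32 to 0.14 without 1 mouse (positive without mouse 2 or 6). *Gucy2e* was -0.32 to 0.089 without 1 mouse (positive without mouse 1). The cause of the other shifts was not tested. Depth limits the members with libraries at 0 counts, which were *Pdc*, *Rcvrn*, *Prph2* and *Rp1* in Best1-Nrf2 eyes.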
